A study of Homo sapiens with 6 samples.

Results

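CASK and DLG2 are the 2 membrane-associated guanylate kinase (MAGUK) scaffold genes named in a table of RNA levels from MDA-MB-231 cells with a control hairpin or a hairpin against RESF1. They were chosen by name, and make up 2 of the 219 features listed. MDA-MB-231, which the labels spell MBA-MD-231, is an established cell line from a human breast cancer that lacks the estrogen and progesterone receptors and HER2 amplification. Total RNA was sequenced from 3 libraries of cells with a control short hairpin RNA (shControl) and 3 libraries of cells with a hairpin against RESF1 (RESF1 knockdown). The hairpins were delivered by lentivirus, the cells of both groups were kept in 10 μg/ml puromycin, and RNA was taken 24 hours after seeding. The labels list a pair of RESF1 hairpins, and the knockdown columns carry the name of the G5 hairpin only. The replicates were separate dishes of these cultures, so that p-values measure the spread between dishes. The comparison asks whether RNA levels move when RESF1, a protein the study links to G-quadruplex sequences in transcribed genes, is depleted.

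MAGUK proteins are scaffolds at cell junctions and synapses. They carry PDZ domains, which hold the tails of membrane proteins, together with an SH3 domain and a guanylate kinase domain that binds other proteins and has lost its enzymatic role. CASK also has a kinase-like domain related to calmodulin-dependent kinases, joins the LIN7 and APBA1 adaptors, and binds syndecans. DLG2, also called PSD-93 or chapsyn-110, is a relative of PSD-95 that anchors NMDA receptors and potassium channels in neurons. DLG proteins are human counterparts of the fly polarity gene discs large.

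In GENCODE 44 on GRCh38, CASK (ENSG00000147044.23) lies on the minus strand of chromosome X from 41514934 to 41923554. DLG2 (ENSG00000150672.19) lies on the minus strand of chromosome 11 from 83455012 to 85628335. CASK spans 408.6 kb, and DLG2 spans 2173.3 kb, the 5th longest of 20020 protein-coding genes. Among the 20 protein-coding symbols of the table, DLG2 has the longest span and CASK the 3rd longest. The exons of the canonical transcript take up 2.16% of the CASK span and 0.366% of the DLG2 span. GENCODE lists 30 transcripts of CASK and 50 of DLG2, and the table does not say which of them its row counts. The authors aligned to another build, the telomere-to-telomere CHM13 genome, so that these positions describe the annotated genes and not the counted intervals. DLG2 is also listed by RefSeq as an older name of MPP2, another MAGUK gene, and the table gives no identifier beside the symbol. No transcript ID row carries the same 6 values as CASK or as DLG2 (0 rows for each), so that neither gene has a duplicate.

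The promoter sequences are shown to compare the start regions of both genes for G-quadruplex motifs, structures formed by runs of guanines. The study places RESF1 mainly on quadruplexes in transcribed sequence and not in promoters, so that this search describes the genes only. The search was for 4 runs of GGG separated by 1 to 7 bases, on both strands. RefSeq (GRCh38.p14) gives 1 start site for CASK and 9 for DLG2. The motif was in the CASK promoter and in 1 of the 9 DLG2 promoters, against 25.0% of 35116 promoters of the same length (300 bases). Each line below gives the 250 bases before a start site, 5′ to 3′ on the minus strand, with the part of a motif match that lies in them in capitals. The first is CASK (chrX:41923555-41923804). The second is the promoter of the canonical DLG2 transcript (chr11:85627345-85627594). The third is the DLG2 promoter with the match, at an internal start site 907.4 kb into the gene (chr11:84720943-84721192).
CASK: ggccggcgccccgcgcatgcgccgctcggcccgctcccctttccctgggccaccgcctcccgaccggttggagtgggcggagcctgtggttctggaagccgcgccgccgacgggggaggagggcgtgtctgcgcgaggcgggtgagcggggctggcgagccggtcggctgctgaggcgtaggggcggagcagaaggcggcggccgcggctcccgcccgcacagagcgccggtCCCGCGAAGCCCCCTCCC
DLG2 canonical: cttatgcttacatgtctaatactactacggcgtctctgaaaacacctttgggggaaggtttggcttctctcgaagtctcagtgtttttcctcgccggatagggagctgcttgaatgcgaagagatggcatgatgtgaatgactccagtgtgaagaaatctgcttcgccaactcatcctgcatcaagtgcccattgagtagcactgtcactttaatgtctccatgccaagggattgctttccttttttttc
DLG2 internal: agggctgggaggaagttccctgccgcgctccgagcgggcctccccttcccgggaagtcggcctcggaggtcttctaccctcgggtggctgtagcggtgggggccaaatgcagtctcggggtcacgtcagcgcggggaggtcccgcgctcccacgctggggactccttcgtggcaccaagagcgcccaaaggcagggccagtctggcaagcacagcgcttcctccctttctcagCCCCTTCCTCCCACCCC

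Both matches read as runs of C here, so that the guanines are on the opposite strand. The CASK match is 24 bases long, with 18 before the start site and 6 after it. The DLG2 match is 25 bases long, with 17 before the start site and 8 after it. The promoters differ in base composition. The CASK promoter is 78.3% G and C and holds 42 CG dinucleotides, and 95.5% of all promoters have a lower G and C content. The canonical DLG2 promoter is 46.0% G and C with 8 CG dinucleotides, and the 9 DLG2 promoters range from 38.0% to 68.3%. Quadruplexes from the shorter GG runs are the class that the study links most to RESF1. A motif of 4 runs of GG with the same spacing was in the CASK promoter and in 6 of the 9 DLG2 promoters, and in 81.5% of all promoters. The promoters with GGG runs are counted among these.

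The canonical transcripts were searched in the same way, as the sequence class closer to the study's question. The CASK transcript (ENST00000378163.7, 8833 bases) holds 3 matches of the GGG motif, 1 on the transcript strand and 2 on the opposite strand. This is 0.34 matches per kb, and 72.6% of 19961 canonical protein-coding transcripts have fewer. The DLG2 transcript (ENST00000376104.7, 7959 bases) holds 0 matches on either strand, where 41.4% of canonical transcripts hold at least 1. For the GG motif the values are 4.19 per kb in CASK and 2.26 per kb in DLG2, with 43.8% and 21.7% of transcripts lower. These counts describe letters in the reference, and no binding of RESF1 to either gene was measured here.

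**Figure D1:**
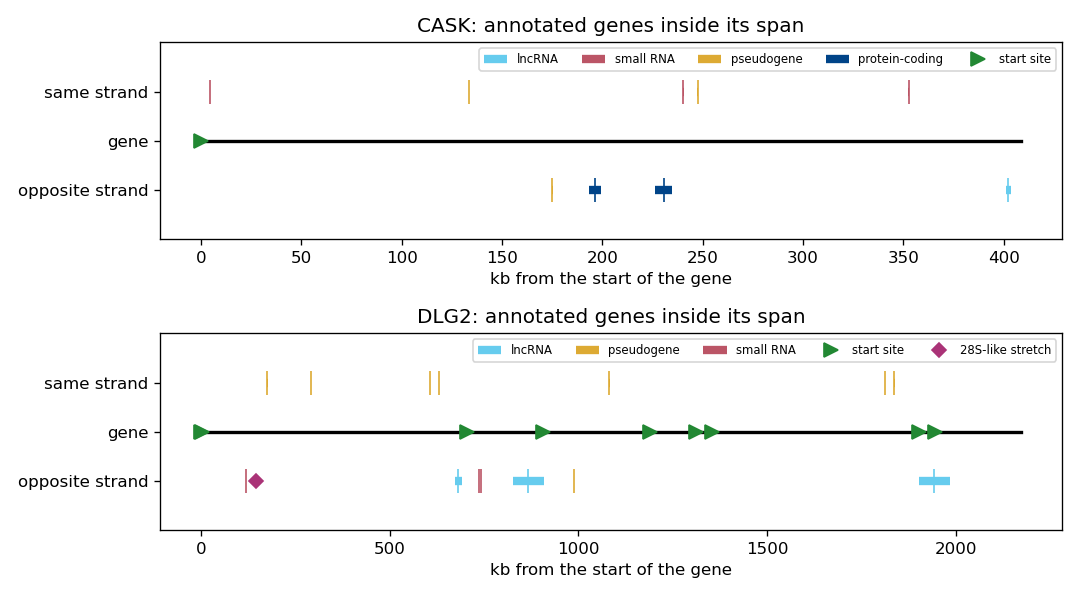
Map of CASK and DLG2 in GRCh38, in kb from the start of each gene, with annotated genes on the same or the opposite strand, RefSeq start sites and the stretch similar to 28S ribosomal RNA. CASK holds 9 annotated genes and 1 start site. DLG2 holds 14 annotated genes and 9 start sites, of which the first pair lie too close together to be told apart.

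Both spans hold other annotated genes. In CASK there are 9, of which 5 lie on its strand, and in DLG2 there are 14, of which 7 lie on its strand. Reads from such a gene can be assigned to the host where counting includes introns or ignores strand. The libraries were made with a stranded kit, and whether the authors counted by strand is not given in the sources used here. CASK encloses the long noncoding RNA gene CASK-AS1 on the opposite strand, the only enclosed gene in either span that overlaps a canonical exon. CASK also encloses the receptor genes GPR34 and GPR82 on the opposite strand and 3 pseudogenes. Its YWHAZP10, on the same strand, is 98.0% identical over 735 bases to YWHAZ, which encodes a 14-3-3 adaptor protein. DLG2 encloses 8 pseudogenes, of which 7 are on its strand. HNRNPCP6 is 90.5% identical over 876 aligned bases to HNRNPC, a nuclear RNA-binding protein gene. None of the enclosed genes is named in the table (0 of 9 and 0 of 14). The lookup was by name, so that enclosed genes with only an identifier, most of those in DLG2, could not be found. Nor could any gene listed under a transcript ID. The share of reads of the CASK and DLG2 rows that came from enclosed genes was not tested.

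DLG2 also holds a stretch like 28S ribosomal RNA, which is shown because UNC45B and RYR2, 2 of the 3 symbols closest to DLG2 in pattern, hold one too. The share of all protein-coding genes that hold such a stretch was not counted, and a span as long as that of DLG2 leaves more room for one. The stretch in DLG2 lies at chr11:85483967-85484260 in intron 3 of 27, on the strand opposite to the gene. It overlaps 0 exons of any annotated DLG2 transcript. The whole match has 88.8% identity over 321 aligned positions. Its longest stretch without gaps is 215 bases (chr11:85483967-85484181, plus strand), of which 209 (97.2%) equal bases 262 to 476 of 28S (the RNA28SN1 copy of GRCh38), and these are in capitals.
28S-like stretch: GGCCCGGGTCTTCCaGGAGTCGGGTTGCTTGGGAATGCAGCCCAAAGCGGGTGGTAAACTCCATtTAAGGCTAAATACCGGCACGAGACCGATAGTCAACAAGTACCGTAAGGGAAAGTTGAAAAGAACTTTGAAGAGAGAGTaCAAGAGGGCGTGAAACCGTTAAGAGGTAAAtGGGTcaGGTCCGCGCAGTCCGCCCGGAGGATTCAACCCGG

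Of 15 abundant RNAs searched (at least 100 aligned bases and 80% identity), CASK matched 7SL RNA only, in 1 place. The annotated 7SL copy in CASK is RN7SL144P, on the same strand as CASK and 84.7% identical to RN7SL1 over 288 aligned positions. DLG2 matched 28S in 1 place and U6 small nuclear RNA in 1 place, the annotated copy RNU6-1292P. CASK also encloses the annotated U6 copies RNU6-1321P and RNU6-202P on its own strand, which did not reach these thresholds. None of the other 12 RNAs had such a match in either gene. The table holds values per feature and not per position, so that where in each gene the reads lie was not analysed here.

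CASK was higher in the RESF1 knockdown. Its normalized read count, that is the reads assigned to the feature after the authors' scaling between libraries, was 83.7, 89.8 and 102.8 in the shControl libraries and 161.0, 133.4 and 134.9 in the knockdown libraries. All 3 knockdown libraries lay above all 3 shControl libraries, and the lowest of them was 1.30-fold above the highest shControl library. The library in column 4 stood highest. The shControl mean was 92.1 ± 9.79 (SD, n = 3) and the knockdown mean 143 ± 15.5 (SD, n = 3), a ratio of 1.55. On the log2(value + 1) scale the change was 0.63 (SE 0.11, 95% interval 0.38 to 0.88), with a limma adjusted p of 0.00184.

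DLG2 was lower in the knockdown. Its normalized read count was 274.1, 227.2 and 272.1 in the shControl libraries and 158.6, 135.1 and 160.2 in the knockdown libraries. Here too the groups did not overlap, and the lowest shControl library was 1.42-fold above the highest knockdown library. The libraries in columns 2 and 5 were the lowest of their groups. The shControl mean was 258 ± 26.5 (SD, n = 3) and the knockdown mean 151 ± 14.1 (SD, n = 3), so that shControl was 1.70-fold higher. The change was -0.76 on the log2(value + 1) scale (SE 0.10, 95% interval -1.01 to -0.52), with a limma adjusted p of 0.000836. In bulk RNA, less RNA in every cell and fewer cells with the RNA cannot be told apart.

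**Figure D2:**
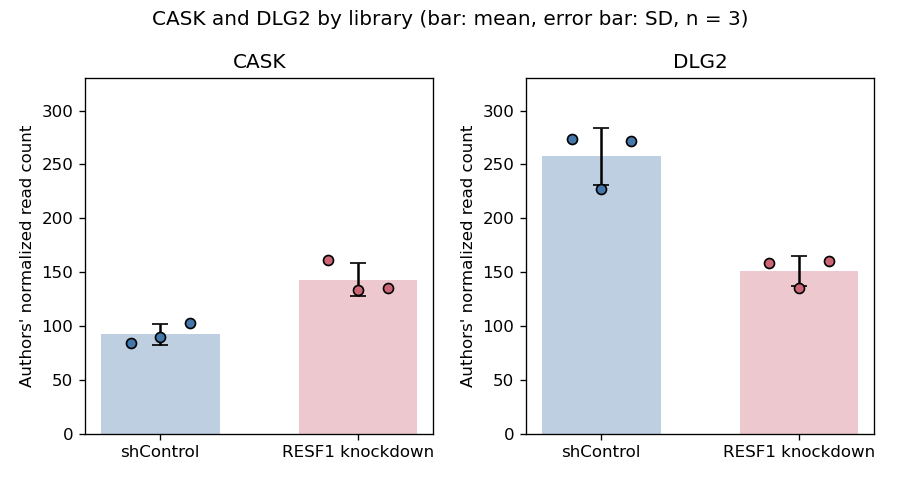
Normalized read count of CASK (left) and DLG2 (right) in each library, on a linear axis from 0. Points are libraries, bars are means and error bars are SD (n = 3). CASK runs from 83.7 to 102.8 in shControl and from 133.4 to 161.0 in knockdown, and DLG2 from 227.2 to 274.1 and from 135.1 to 160.2, without overlap in either gene.

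These calls have to be read against the table, which is a list already separated by group. Of its 219 features, 100% had a limma adjusted p of at most 0.05, 54.8% of them higher and 45.2% lower in knockdown. The 3 knockdown values lay on 1 side of the 3 shControl values in 100% of the features as well. That both CASK and DLG2 passed is therefore what the list gives for any row, and their p-values are no independent evidence of a change. The sizes of the changes and the spread between libraries are descriptions of these 6 libraries.

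Within the list, both genes lay among the lower counts and had changes above the middle. Over the 198 distinct rows, 8.08% had a lower mean than CASK and 22.2% a lower mean than DLG2. A smaller absolute log2 change was found in 66.2% of the rows for CASK and in 79.8% for DLG2. CASK had the 42nd largest of 111 rises, whose median was 0.53, and DLG2 the 17th largest of 87 falls, whose median was -0.42. Among features named by a symbol, CASK ranked 8th of 20 rises and DLG2 7th of 24 falls. The coefficient of variation of CASK was 10.6% among shControl and 10.8% among knockdown libraries, and that of DLG2 was 10.3% and 9.31%. The medians over the distinct rows were 6.93% and 6.11%, so that both genes varied more between libraries of a group than the middle row.

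**Figure D3:**
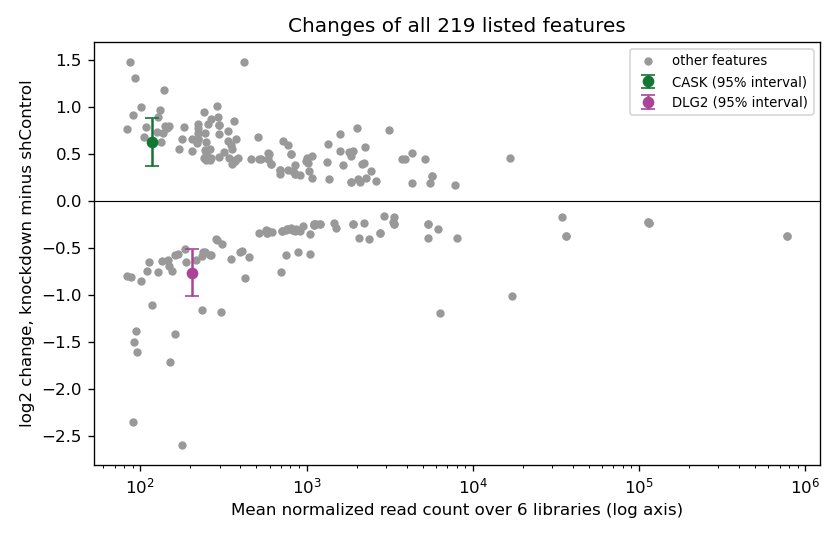
Log2 change, knockdown minus shControl, against the mean normalized read count over 6 libraries (log axis) for all 219 features. CASK at 0.63 and DLG2 at -0.76 carry their 95% limma intervals, and grey points are the other features.

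The opposite directions were compared within each library, since a ratio of 2 genes from the same library does not move with the scaling of that library. The rows may cover different lengths, so that the ratio is read between libraries only and not as a level of CASK against DLG2. The ratio of CASK to DLG2 was 0.305, 0.395 and 0.378 in the shControl libraries and 1.01, 0.988 and 0.842 in the knockdown libraries. Every knockdown ratio was above every shControl ratio, the lowest 2.13-fold above the highest. The mean ratio rested at 0.359 ± 0.048 (SD, n = 3) for shControl and at 0.948 ± 0.093 (SD, n = 3) for knockdown. The log2 difference was 1.39 (SE 0.14), which is 2.63-fold, and a two-sided exact permutation test over the libraries gave p = 0.1, which is as low as 3 libraries against 3 can reach. As the table lists separated features only, a rising and a falling member fix the direction of this difference in advance. They also fix the lack of overlap between the ratios and this p, so that the test is no evidence of a change. Both rows together summed to 350 ± 29.8 (SD, n = 3) for shControl and 294 ± 25.6 (SD, n = 3) for knockdown.

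Over the 6 libraries the log2 values of CASK and DLG2 had a Pearson r of -0.86. With the mean of each group removed, r was 0.31, so that the negative value came from the group means. The 6 points share their libraries and the authors' scaling, and these values are given as a description.

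The symbols closest to each gene were taken by Pearson r of log2(value + 1) over the 6 libraries, among 43 other symbols. Since all rows separate the groups, r was above 0.9 for 12 symbols with CASK and for 13 with DLG2, and only the first 3 are given. It was below -0.9 for 13 symbols with CASK and for 9 with DLG2. The lowest were AL162581.1 with CASK (r -0.997, and -0.993 with group means removed) and AC011603.3 with DLG2 (r -0.993, and -0.943). Closest to CASK were PABPC3 (r 0.98), a poly(A)-binding protein gene, KRT8P10 (r 0.96), a keratin 8 pseudogene, and GBA3 (r 0.96), a cytosolic beta-glucosidase gene. With group means removed, r was 0.84, 0.61 and 0.69. The same r with DLG2 was 0.15, 0.79 and 0.81, so that KRT8P10 and GBA3 were closer to DLG2 than to CASK within groups. PABPC3 was highest in the library in column 4 at 458, as CASK was, against 359 and 324 in the other knockdown libraries, and its shControl values were 205, 212 and 228. Its log2 change was 0.81 (SE 0.13).

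Closest to DLG2 were UNC45B (r 0.99), a muscle myosin chaperone gene, AD000090.1 (r 0.98), and RYR2 (r 0.98), the cardiac ryanodine receptor gene. With group means removed, r was 0.94, 0.94 and 0.80, and UNC45B then had the highest r of all 43 symbols. UNC45B read 23806, 20679 and 24551 in the shControl libraries and 11684, 9948 and 12771 in the knockdown libraries. Its low libraries in each group were those in columns 2 and 5, as for DLG2. AD000090.1 had the same lows. So did GBA3 (284 and 441) and KRT8P10 (160 and 258), which rose in knockdown. The log2 changes differed in size, at -1.01 (SE 0.11) for UNC45B, -1.50 (SE 0.27) for AD000090.1 and -2.35 (SE 0.20) for RYR2, beside -0.76 for DLG2. Of the 20 protein-coding symbols, 4 hold a stretch like 28S by the thresholds above, and DLG2, UNC45B and RYR2 are 3 of these, with GCNT1 the other. The r of GCNT1 with DLG2 over the 6 libraries was 0.93, and with group means removed it was -0.40. PABPC3, GBA3 and CASK hold none, and AD000090.1 and KRT8P10 are not protein-coding symbols here and were not searched. The part of such stretches in the values of DLG2 was not tested.

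**Figure D4:**
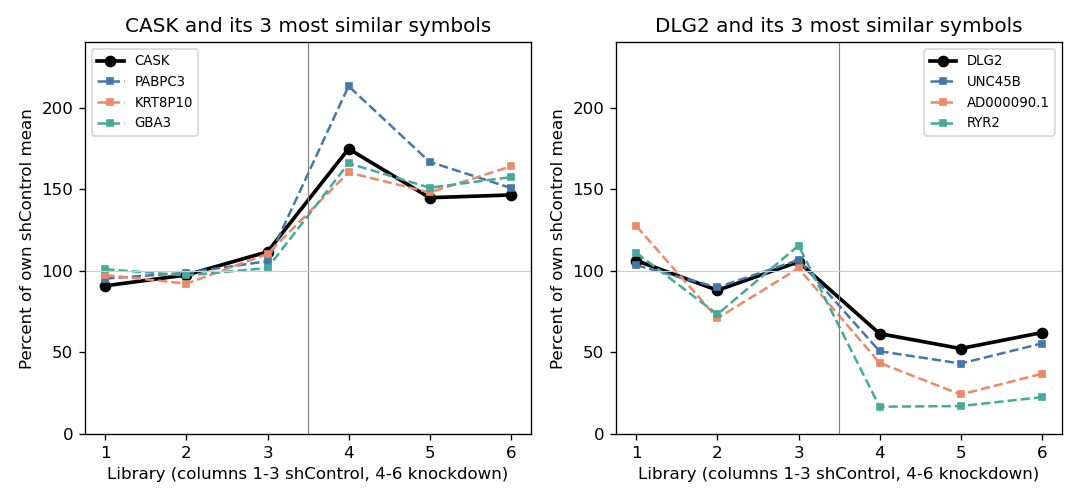
Values of CASK (left) and DLG2 (right) with their 3 most similar symbols, as a percentage of the shControl mean of each gene, by library. Columns 1 to 3 are shControl and 4 to 6 knockdown, replicates have no order, and lines only join the values of a gene. CASK peaks in column 4 with PABPC3, and DLG2 has its group lows in columns 2 and 5 with UNC45B. AD000090.1, GBA3 and KRT8P10 have their group lows in these columns too.

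The other genes of the MAGUK family and its partners were looked up by symbol. Of 28 MAGUK family symbols, among them DLG1, DLG3, DLG4, DLG5, MPP1, TJP1 and MAGI1, 2 were in the table, CASK and DLG2 themselves. Of 17 partners of CASK, such as LIN7A, APBA1 and SDC1, 0 were listed, and of 23 partners of DLG proteins, such as GRIN2A, SCRIB and DLGAP1, 0 were listed. The table names 44 features by a symbol and 175 by a transcript ID without a gene name, so that family members among the latter would not be recognised. Of 11 markers of the cell line, 5 expected to be expressed (such as VIM and CD44) and 6 expected to be low or absent (such as ESR1), 0 were listed, and RESF1 itself is not among the symbols. The identity of the cells and the knockdown were therefore not checked here.

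CASK stayed higher and DLG2 lower in knockdown under every setting that gave a value. The setting that moved both most was a second median-ratio scaling, computed from the listed features alone. It lowered the median log2 change of all features by 0.19, and gave 0.44 for CASK and -0.95 for DLG2. The log2 difference between the 2 genes stayed at 1.39, since a scaling factor cancels in the ratio.

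**Figure D5:**
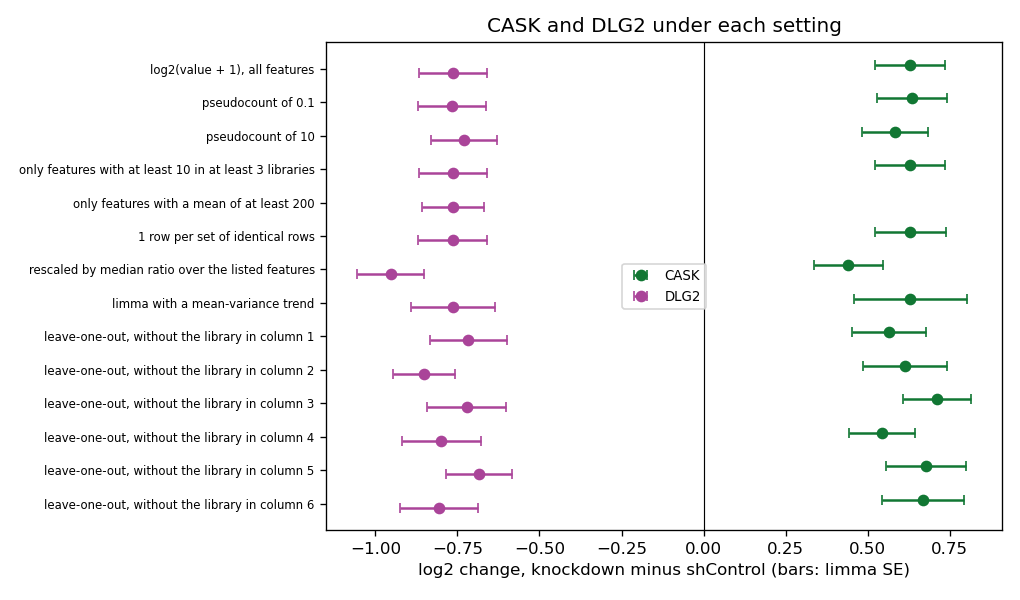
Log2 change of CASK and DLG2, knockdown minus shControl, under each setting, with limma SE as bars. All CASK values lie between 0.44 and 0.71 and all DLG2 values between -0.95 and -0.68. CASK has no value under the filter on the mean.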

How the data were processed

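Per the labels and the study's methods, the authors aligned total RNA reads (TruSeq stranded kit) with STAR 2.7.8a to the CHM13 genome in Partek and scaled libraries by median ratio. The counting tool is not given in the sources used here. The deposited values are a signal, normalized read counts of 219 features. The authors tested with DESeq2, which was not run here, since the deposited values are not whole reads. No step placed more than 39.1% of the values below 400 within 0.1 of a whole multiple. The share reached by values without steps is not given here, so that 39.1% is a description only. Depth is unknown. Columns were assigned to groups by name, without replicate numbers, and all were used.

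Log2(value + 1) of all features was fitted with limma 3.58.1 (R 4.3.3). P-values are two-sided with Benjamini-Hochberg adjustment over 219 features, called at 0.05. Named genes are the members and the 3 most correlated symbols of each. Members and lists were chosen with earlier results of these data known. Matches used GENCODE 44, RefSeq and blastn 2.17.0. Alternatives were other pseudocounts, filters on low values, identical rows, rescaling, a variance trend and leaving out each library.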

Additional observations from a re-analysis of the deposited data

How the results depend on the processing

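The CASK change passed at 0.05 under each of 12 alternatives (0.44 to 0.71, limma adjusted p 0.00163 to 0.00719), and the DLG2 change under each of 13 (-0.95 to -0.68, adjusted p 0.000139 to 0.00369). Leaving out 1 library at a time gave 0.54 to 0.71 for CASK and -0.85 to -0.68 for DLG2. In those fits 211 to 215 of the 219 features were called, so that passing sets neither gene apart from the list. With 2 libraries left in a group, the fit assumes that they vary like the other group. The log2 difference between CASK and DLG2 ranged from 1.28 to 1.48, with an exact permutation p of 0.1 throughout, which says nothing about stability. The number of features called lay between 177 and 219, lowest where testing was restricted to the 177 features whose mean reached 200, a restriction that removes CASK. Requiring a value of 10 or more in 3 or more libraries took out 0 features. Rescaling left 188 calls, of which 47.3% were higher in knockdown against 54.8% as deposited. No paired analysis was possible because the column names number all 6 libraries in a row and give no replicate. With 3 libraries per group and unknown depth, counting error behind these low counts was not separated from other spread.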
